A study of Mus musculus with 6 samples.

Results

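The genes described here are 10 genes known from mast cells, basophils and eosinophils: Tpsb2, Cpa3, Mcpt8, Prss34, Fcer1a, Ms4a2, Gzmb, Hdc, Prg2 and Ccr3. They were taken as a fixed list by symbol, and each symbol matched 1 Ensembl identifier among the 30409 genes measured. The study sequenced RNA from C57BL/6 mouse bone marrow cells sorted as Lineage-Sca1+cKit+CD34-Flk2-, a gate for long-term haematopoietic stem cells. It has 4 RNA-seq groups of 1 library each. These are wild type at steady state without treatment, Twist1 cKO (a conditional knockout of the basic helix-loop-helix factor gene Twist1) at steady state, wild type 12 days after irradiation and Twist1 cKO 12 days after irradiation. The Cre line, the radiation dose, the age of the mice and the number of mice per library are not given in the sources used here, and the series' ATAC-seq data (2 samples) were not analysed here. With 1 library per group there is no spread between replicates. Every difference below compares libraries, has no replicate check and carries no test, and intervals and floors cover counting error only. Where a pair of values is given for a condition, wild type comes first.

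Mast cells, basophils and eosinophils are granulocytes of allergic and antiparasite responses that arise from bone marrow progenitors. Mast cells mature in tissues under stem cell factor, the ligand of Kit, and store tryptases, chymases, carboxypeptidase A3 and histamine on heparin chains. Basophils carry basophil-type proteases and, like mast cells, the high-affinity IgE receptor, which is built from an alpha chain that binds IgE (Fcer1a), a beta chain that amplifies the signal (Ms4a2) and a gamma chain shared with other Fc receptors (Fcer1g). Eosinophils store major basic protein (Prg2) and eosinophil peroxidase (Epx), depend on interleukin 5 and respond to eotaxins through Ccr3. GATA2 and GATA1 act in all of these lineages, and in the bone marrow some of these genes are already transcribed in progenitors.

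The sequences upstream of the genes are given because GATA factors read the letters AGATAA and TGATAA. RefSeq promoters (GRCm38.p6) matched 8 of the 10 members, and Tpsb2 and Prg2 were not among them. The 250 bases before the start site of the promoter entry are given 5′ to 3′ for the 5 members in which AGATAA or TGATAA occurred. Of these, Cpa3 and Fcer1a were lower after irradiation in both genotypes, and Ms4a2 and Prss34 were not. Ccr3 had a genotype difference of opposite signs in the 2 conditions. The windows of Ccr3, Mcpt8 and Hdc lie wholly within the gene spans given below, and those of Cpa3, Fcer1a and Ms4a2 overlap the end of theirs. Start sites of these 6 entries are thus not the outer end of the gene. Capitals mark AGATAA or TGATAA on either strand. They lie at chr3:20242182-20242431, minus strand (Cpa3), chr1:173227230-173227479, minus strand (Fcer1a), chr19:11623720-11623969, minus strand (Ms4a2), chr17:25298144-25298393, plus strand (Prss34) and chr9:124021721-124021970, plus strand (Ccr3).
Cpa3: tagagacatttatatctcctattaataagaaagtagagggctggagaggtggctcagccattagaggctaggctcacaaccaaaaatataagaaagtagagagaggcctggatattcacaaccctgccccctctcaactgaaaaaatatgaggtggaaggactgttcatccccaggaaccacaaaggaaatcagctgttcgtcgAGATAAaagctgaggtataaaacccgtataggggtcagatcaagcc
Fcer1a: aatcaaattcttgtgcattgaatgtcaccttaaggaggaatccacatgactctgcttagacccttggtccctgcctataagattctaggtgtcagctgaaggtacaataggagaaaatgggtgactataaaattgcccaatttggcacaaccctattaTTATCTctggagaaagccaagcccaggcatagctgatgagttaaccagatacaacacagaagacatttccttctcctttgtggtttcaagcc
Ms4a2: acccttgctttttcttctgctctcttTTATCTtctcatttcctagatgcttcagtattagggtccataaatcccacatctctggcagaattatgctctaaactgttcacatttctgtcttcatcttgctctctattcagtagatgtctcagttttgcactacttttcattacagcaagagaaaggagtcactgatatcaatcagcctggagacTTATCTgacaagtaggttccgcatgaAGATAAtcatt
Prss34: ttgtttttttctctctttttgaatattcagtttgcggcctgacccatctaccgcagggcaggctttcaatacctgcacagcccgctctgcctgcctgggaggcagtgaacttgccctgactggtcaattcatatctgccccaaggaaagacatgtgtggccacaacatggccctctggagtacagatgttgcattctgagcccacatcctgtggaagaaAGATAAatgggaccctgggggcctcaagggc
Ccr3: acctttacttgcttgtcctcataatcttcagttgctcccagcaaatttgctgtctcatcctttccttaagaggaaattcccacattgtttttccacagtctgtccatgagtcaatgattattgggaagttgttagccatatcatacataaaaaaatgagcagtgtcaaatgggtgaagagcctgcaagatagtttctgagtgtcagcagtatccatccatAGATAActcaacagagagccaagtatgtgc
AGATAA or TGATAA occurred in 5 of the 8 member promoters, the 5 printed, and in 16.6% of 32851 promoters of the same length; all matches in the members were AGATAA. The match began 46 bases before the start in Cpa3, 92 in Fcer1a, 31 in Prss34 and 30 in Ccr3, whereas Ms4a2 had 3 matches, at 224, 37 and 11 bases. The letters occurred in members that were lower and in members that were higher after irradiation. They did not occur in Mcpt8 and Hdc, which were lower in both genotypes, or in Gzmb. Any part of GATA factors in these differences was not tested. The E-box CANNTG, the kind of site that TWIST1 and other basic helix-loop-helix factors bind, was found on either strand in 7 of the 8, all but Ms4a2, beside 66.2% of all promoters. Its forms CATCTG (3 of 8, beside 14.4%) and CATATG (0 of 8, beside 3.46%) are counted within CANNTG. A match describes the letters and not a bound site.

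Values are FPKM, reads scaled by the authors for gene length and library size, so levels can be compared between genes. Whole reads were recovered from them and added up to between 20349833 and 25100818 per library. The library size implied by the values was 1.04 and 1.14 times these reads at steady state, and 0.895 and 1.15 times after irradiation. In the irradiated wild-type library the reads in genes thus exceeded the implied size, for a reason that was not determined. Twist1 had 6 and 2 reads in the steady-state pair and 5 and 0 in the irradiated pair, too few to check the knockout. Several defining genes of the gate's stem cells were near 0 in the irradiated libraries: Hlf had 17.4 and 17.7 FPKM before but 0.0608 and 0.102 FPKM after irradiation, and Procr had 51.3 and 66.1 but 0.333 and 1.22 FPKM. Others remained, such as Slamf1, which had 7.41 and 6.82 FPKM before and 3.65 and 2.81 FPKM after irradiation. The summed level of 8 stem cell and gate genes, most of it from Ly6a, was 658 and 523 FPKM in the steady-state libraries but 102 and 267 in the irradiated ones, while 8 erythroid genes summed to 3768 and 2548 and then to 12677 and 14134. The first sum includes 2 genes whose products the gate excludes. These are Cd34 (18.4 and 29.2 FPKM at steady state) and Flt3, the gene of Flk2 (6.26 and 9.32 FPKM). The X-linked Xist (at most 0.0171 FPKM at steady state and 1.003 and 0.573 after irradiation) and the Y-linked Ddx3y (10.2 and 12.4, then 0.0521 and 0.0164) split the libraries as irradiation did. Irradiation therefore cannot be told apart here from the sex of the mice or from this change in the cells collected. In these bulk libraries fewer cells of a type and less RNA per cell cannot be told apart either.

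Tpsb2 and Cpa3, the members stored in mast cell granules, were clearly present at steady state and nearly gone after irradiation. Tpsb2 (ENSMUSG00000033825, GRCm38 chromosome 17, 25366308 to 25368096) encodes the tryptase beta of mast cell granules. It had 16.8 FPKM (95% counting interval 15.3 to 18.4) in the steady-state wild-type library and 10.6 FPKM (9.44 to 11.9) in the steady-state cKO library, then 0 reads and 1 read in the irradiated wild-type and cKO libraries. Both steady-state levels stood far above both irradiated ones, and the steady-state libraries also differed from each other beyond counting error. Cpa3 (ENSMUSG00000001865, chromosome 3, 20215616 to 20242209), carboxypeptidase A3, had 27.6 FPKM (26.0 to 29.3) and 26.6 FPKM (25.0 to 28.3) at steady state, against 0.774 FPKM (0.506 to 1.13) and 1.10 FPKM (0.780 to 1.499) in the irradiated pair. Its order followed irradiation, and within each condition the intervals of the genotypes overlapped. In the steady-state wild-type library Cpa3 lay above 92.0% of all genes and Tpsb2 above 88.7%. The other tryptase gene, Tpsab1, was barely measured there (0.275 FPKM), so that Tpsb2 stood 61.0-fold (36.6 to 110) higher per length than Tpsab1. Lists of other cells were lower in the same libraries: 6 promyelocyte granule genes summed to 1994 and 1611 FPKM at steady state, against 123 and 262 FPKM in the irradiated pair, and 6 megakaryocyte genes to 377 and 340, against 15.3 and 32.5 FPKM. All 6 promyelocyte granule genes, and all 5 megakaryocyte genes that reached 5 FPKM, were lower by 2-fold or more in both genotypes. Of all genes, 18.9% were lower by that much in wild type and 22.6% in the cKO. Their part in the values of Tpsb2 and Cpa3 was not tested. RefSeq places a long non-coding RNA, a microRNA and a pseudogene within the span of Cpa3, and a microRNA within that of Mcpt8. Not given in the sources used here was the use of strand in counting.

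The basophil proteases were low in every library and went different ways. Mcpt8 (ENSMUSG00000022157, chromosome 14, 56082163 to 56085499), the protease that marks mouse basophils, had 34, 27, 1 and 11 reads in the steady-state wild-type, steady-state cKO, irradiated wild-type and irradiated cKO libraries. These gave 1.53, 1.25, 0.0528 and 0.549 FPKM, so the irradiated wild-type library was lowest and the steady-state pair did not differ beyond counting error. Prss34 (ENSMUSG00000056399, chromosome 17, 25298394 to 25300168), also called mast cell protease 11 and made by basophils, had 0.316, 0.163, 0.594 and 2.67 FPKM in the same order, from 10, 5, 16 and 76 reads. Only the irradiated cKO library stood out for Prss34, and the remaining libraries overlapped one with the next in order of level.

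The chains of the IgE receptor did not go together. Fcer1a (ENSMUSG00000005339, chromosome 1, 173221269 to 173227232) had 3.08 FPKM (2.44 to 3.83) and 4.17 FPKM (3.41 to 5.05) at steady state, against 0.362 FPKM (0.156 to 0.713) and 1.62 FPKM (1.15 to 2.23) in the irradiated pair. Ms4a2 (ENSMUSG00000024680, chromosome 19, 11615517 to 11623790) had 0.273 FPKM (0.167 to 0.422) and 0.352 FPKM (0.228 to 0.520) at steady state, against 2.30 FPKM (1.93 to 2.70) and 1.21 FPKM (0.962 to 1.51) in the irradiated pair. The alpha chain was thus higher in both steady-state libraries and the beta chain in both irradiated ones. Per length, Fcer1a stood at 11.3 times Ms4a2 (6.84 to 19.4) in the steady-state wild-type library and 11.8 times (7.60 to 19.1) in the steady-state cKO library, but at 0.158 times (0.0668 to 0.319) in the irradiated wild-type library and 1.34 times (0.885 to 1.99) in the irradiated cKO library. The gamma chain gene Fcer1g, which many myeloid cells transcribe, was much more abundant, at 327 and 175 FPKM before irradiation and 209 and 369 FPKM after it. The promoters printed for Fcer1a and Ms4a2 both hold AGATAA.

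**Figure D1:**
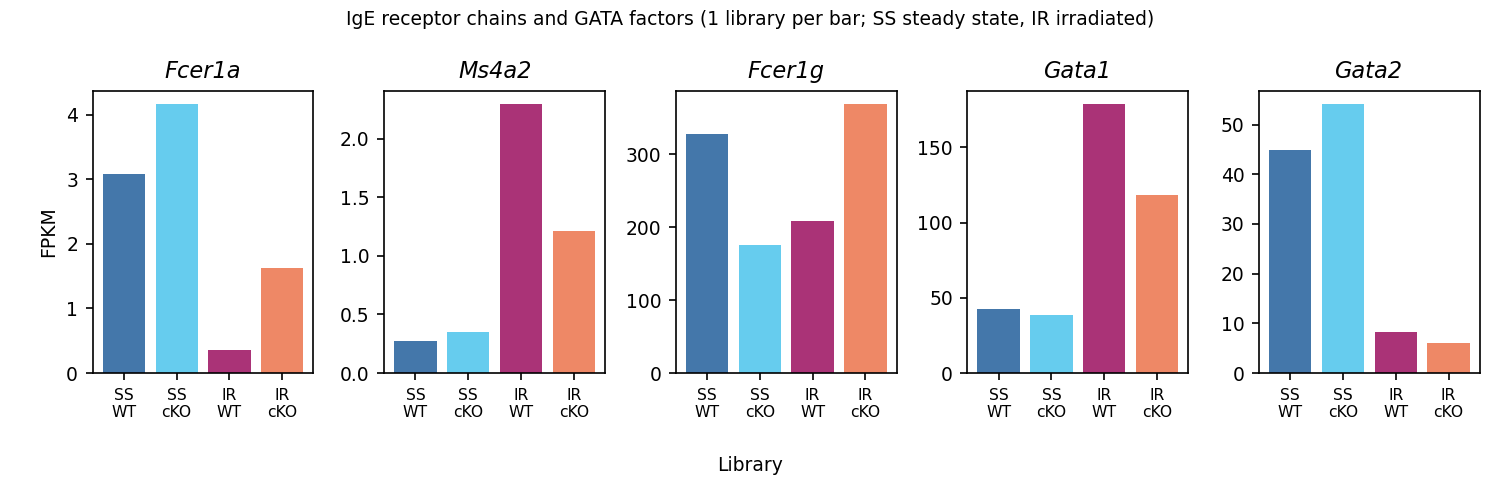
Level in FPKM (vertical axes, each from 0 and with its own range) of the 3 IgE receptor chain genes and of Gata1 and Gata2 in the 4 libraries; each bar is 1 library, without error bars. Fcer1a and Gata2 are higher at steady state, Ms4a2 and Gata1 are higher after irradiation, and Fcer1g is lowest in the steady-state cKO library.

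Gzmb and Hdc are less tied to these cells. Gzmb (ENSMUSG00000015437, chromosome 14, 56258836 to 56262334) encodes granzyme B, best known from cytotoxic lymphocytes and also made by basophils and mast cells, and it had 2.82, 3.74, 3.09 and 5.29 FPKM in the steady-state wild-type, steady-state cKO, irradiated wild-type and irradiated cKO libraries. It was the flattest member: the irradiated cKO library was highest, and the others overlapped one with the next in order of level. Hdc (ENSMUSG00000027360, chromosome 2, 126593659 to 126624025), histidine decarboxylase, which makes histamine, had 2.25 FPKM (2.03 to 2.49) and 2.31 FPKM (2.08 to 2.55) at steady state, against 0.509 FPKM (0.398 to 0.641) and 0.928 FPKM (0.780 to 1.10) in the irradiated pair. Its steady-state libraries did not differ beyond counting error, and both lay above the irradiated ones.

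The members known from eosinophils stayed well expressed in every library. Prg2 (ENSMUSG00000027073, chromosome 2, 84980461 to 84983632), major basic protein, had 146 FPKM (141 to 151) and 132 FPKM (128 to 137) at steady state, against 52.3 FPKM (49.1 to 55.7) and 97.7 FPKM (93.3 to 102) in the irradiated pair. It was the most abundant member in all 4 libraries and lay above 94.2% to 98.3% of all genes, with no overlap between the intervals of any pair of libraries. Ccr3 (ENSMUSG00000035448, chromosome 9, 124017825 to 124031692), the eotaxin receptor, had 27.2 FPKM (26.1 to 28.3) in the steady-state wild-type library, 8.12 FPKM (7.52 to 8.76) in the steady-state cKO library, 13.4 FPKM (12.5 to 14.2) in the irradiated wild-type library and 21.9 FPKM (20.9 to 23.0) in the irradiated cKO library. Here wild type was higher at steady state and the cKO after irradiation. Other eosinophil genes were lower than Prg2 and did not share 1 pattern. Epx, near 0 throughout, had 0.267, 0.796, 0.214 and 0.156 FPKM in the same order, so that Prg2 stood 549 times (351 to 913) above it per length in the steady-state wild-type library and between 166 and 627 times over the 4 libraries. Il5ra, the interleukin 5 receptor chain, went from 2.02 and 1.33 FPKM in the steady-state pair to 0.0632 and 0.191 FPKM in the irradiated pair.

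**Figure D2:**
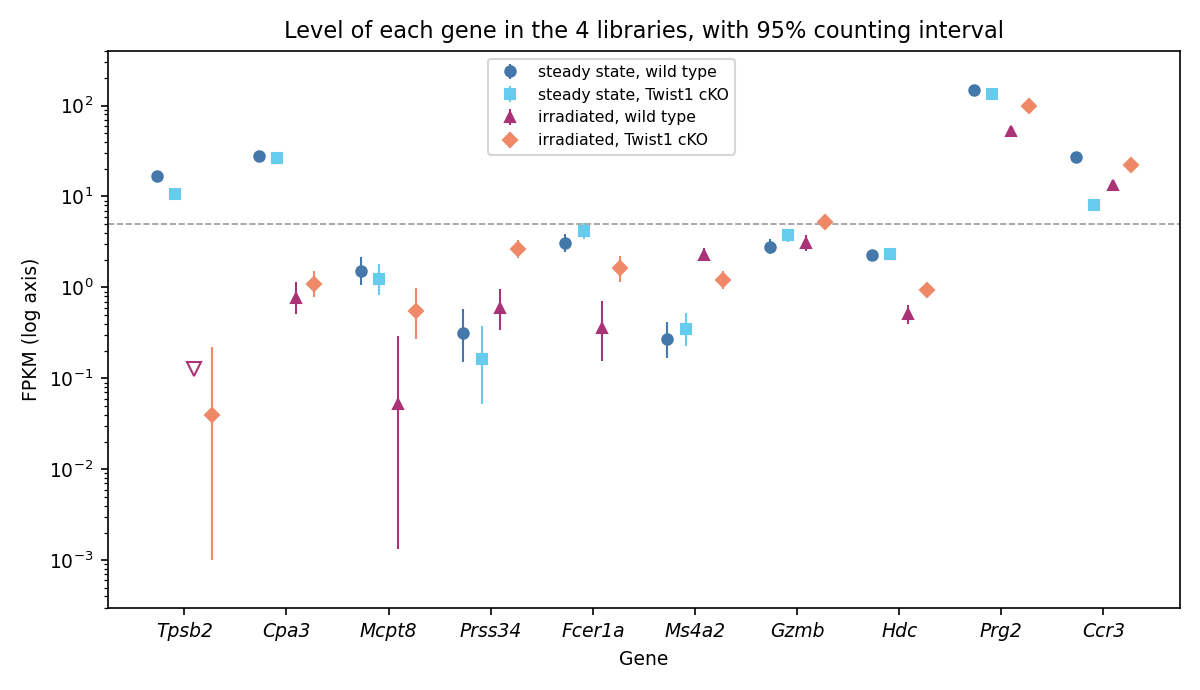
Level of each of the 10 genes (horizontal axis) in FPKM on a log axis, with 1 point per library and its 95% Clopper-Pearson counting interval; the open triangle marks the value of 3 reads for Tpsb2 in the irradiated wild-type library, which had 0 reads, and the dashed line marks 5 FPKM. Tpsb2 and Cpa3 separate the steady-state from the irradiated libraries, Prg2 and Ccr3 stay above 5 FPKM in all 4, and Prss34 and Ms4a2 are highest in an irradiated library.

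At steady state, the cKO library differed from wild type by at least 2-fold in 1 member. Differences are on the log2 scale of FPKM + 1, and a gene is counted if its higher library reached 5 FPKM, as 4 of the 10 members did (Tpsb2, Cpa3, Prg2 and Ccr3). Ccr3 was 3.35-fold (3.07 to 3.66) lower in the cKO library, a log2 difference of -1.63. None of the 4 was at least 2-fold higher, beside 0.643% of 7157 genes that were higher by that much and 2.7% that were lower. Tpsb2 was 1.58-fold (1.36 to 1.83) lower in the cKO library (log2 difference -0.61), while Cpa3 was level (a ratio of wild type to cKO of 1.04, 0.952 to 1.13), so the 2 mast cell genes did not share the difference. Prg2 was 1.11-fold (1.05 to 1.16) lower, and this direction turned (log2 difference 0.06) with rescaling to all but the top 50 genes by level, as did that of Cpa3 (0.14). Among members under 5 FPKM, Fcer1a (1.35-fold, 1.002 to 1.83) and Gzmb (1.33-fold, 1.02 to 1.73) were higher in the cKO library, and the intervals of Mcpt8, Prss34, Ms4a2 and Hdc included a ratio of 1. In all, counting intervals lay wholly above 1 for 2 members (15.2% of 25188 genes with at least 1 read) and wholly below 1 for 3 (13.6%).

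Between the irradiated libraries 9 of the 10 members had the higher value in the cKO library. The share of all genes with the higher value there was not counted. More of all genes were above 0 in the irradiated cKO library (88.9%) than in the irradiated wild-type library (79.2%). None of the 3 members that reached 5 FPKM (Gzmb, Prg2, Ccr3) was at least 2-fold apart. The background was 4.47% of 6348 genes that were higher by 2-fold or more and 1.04% that were lower. Prg2 was 1.87-fold (1.73 to 2.02) higher, Gzmb 1.71-fold (1.33 to 2.22) and Ccr3 1.64-fold (1.51 to 1.78). The median log2 difference of all genes was -0.45 in this comparison and moved to between -0.35 and -0.06 with other scalings. Relative to the median of all genes as deposited, Prg2 stood at 1.34, Ccr3 at 1.12 and Gzmb at 1.07. Scaled to recovered read totals, Prg2 and Ccr3 reached 2-fold. With a minimum of 1 FPKM, or none, 1 member (Prss34) was counted as higher, beside 6.96% and 2.86% of all genes. Of the members under 5 FPKM, 3 had larger ratios from few reads: Prss34 was 4.49-fold (2.59 to 8.24) higher in the cKO library, Fcer1a 4.49-fold (2.06 to 11.1) and Mcpt8 10.4-fold (1.51 to 447) from 11 reads against 1. Hdc was 1.82-fold (1.36 to 2.46) higher. Ms4a2 was the only member with the lower value in the cKO library, 1.89-fold (1.43 to 2.52) lower, and the basophil and mast cell cytokine gene Il4 was 1.90-fold (1.38 to 2.63) lower there. Counting intervals lay wholly above a ratio of 1 for 7 members, beside 19.6% of 28363 genes with at least 1 read, and wholly below it for 1, beside 26%.

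The summed level of every marker list of other cells was also higher in the irradiated cKO than in the irradiated wild-type library. This direction was thus not particular to the members. Of 10 neutrophil genes, 8 reached 5 FPKM between the irradiated libraries and all 8 were higher by 2-fold or more in the cKO, beside 4.47% of all genes. The 10 genes summed to 441 FPKM in wild type and 1342 in cKO, with no gene at 0. The promyelocyte granule list (6 genes, 123 against 262 FPKM, 4 at least 2-fold higher) and the macrophage and monocyte list (10 genes, 1354 against 2598.5 FPKM, 4 at least 2-fold higher) were higher as well. T and NK cell genes, which bear on Gzmb, summed to 90.7 against 156 FPKM, with 5 of the 6 genes that reached 5 FPKM at least 2-fold higher. Most of this sum was Nkg7 (75.6 against 98.2 FPKM), which is also counted in the promyelocyte granule list. B and plasma cell genes (1535 against 4499 FPKM), megakaryocyte genes (15.3 against 32.5) and stem cell and gate genes (102 against 267) were higher too. At steady state the neutrophil sum was also higher in the cKO library (1625 against 2711 FPKM), where Ccr3 was lower. The part of other cells in the values of the 10 genes was not tested.

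After irradiation in wild type, the mast cell genes differed most. Of the 4 members that reached 5 FPKM, 3 were at least 2-fold lower (Tpsb2, Cpa3 and Prg2) and none was higher, beside 18.9% of 7418 genes lower and 18.9% higher. Tpsb2 had 0 reads after irradiation (log2 difference -4.15), and the lower end of its counting interval was 108-fold lower. With the floor of 3 reads in place of 0 the ratio was 134-fold. Cpa3 was 35.7-fold (24.2 to 54.9) lower (-4.01). Prg2 was 2.80-fold (2.602 to 3.01) lower, and Ccr3, at 2.04-fold (1.89 to 2.20) lower, had a log2 difference of -0.97, just inside the 2-fold limit on the log2 scale of FPKM + 1. It passed that limit with a pseudocount of 0.1. Members under 5 FPKM were lower too for Fcer1a (8.51-fold, 4.12 to 20.4), Hdc (4.42-fold, 3.43 to 5.77) and Mcpt8 (28.9-fold, lower end of the interval 4.85, from 1 read). Ms4a2 went the other way, 8.40-fold (5.24 to 14.2) higher. Gzmb and Prss34 did not differ beyond counting error, and the small positive difference of Gzmb (0.10) turned to -0.06 when scaled to recovered read totals. Counting intervals lay wholly below 1 for 7 members, beside 29.8% of 26765 genes, and wholly above 1 for 1, beside 26.2%. With a minimum of 1 FPKM, or none, 6 members were counted as lower, beside 19.4% and 9.06% of genes, and 1 (Ms4a2) as higher, beside 14.9% and 6.98%.

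In the Twist1 cKO the change with irradiation had the same direction for mast cell genes and the opposite one for Ccr3. Of the 5 members that reached 5 FPKM, Tpsb2 and Cpa3 were at least 2-fold lower after irradiation and Ccr3 was at least 2-fold higher, beside 22.6% of 7393 genes lower and 10.3% higher. Tpsb2 was 269-fold lower from 1 read, with a lower end of the interval of 48.0, and Cpa3 was 24.3-fold (17.6 to 34.3) lower. Ccr3 was 2.70-fold (2.47 to 2.96) higher. Prg2 was 1.36-fold (1.28 to 1.44) lower, Fcer1a 2.57-fold (1.76 to 3.83), Hdc 2.49-fold (2.04 to 3.04) and Mcpt8 2.28-fold (1.10 to 5.10) lower. Prss34 was 16.4-fold (6.71 to 51.8) higher, Ms4a2 3.44-fold (2.17 to 5.63) and Gzmb 1.41-fold (1.12 to 1.78) higher. The median of all genes was 0.21 in wild type and -0.20 in the cKO for the irradiation difference. Over the scalings tried it ranged from -0.24 to 0.38 in wild type and from -0.42 to 0.09 in the cKO. Counting intervals lay wholly above 1 for 4 members, beside 28.2% of 28885 genes, and wholly below 1 for 6, beside 30.1%. With a minimum of 1 FPKM, or none, Prss34 joined Ccr3 as higher (2 members), beside 13.6% and 6.26% of genes.

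**Figure D3:**
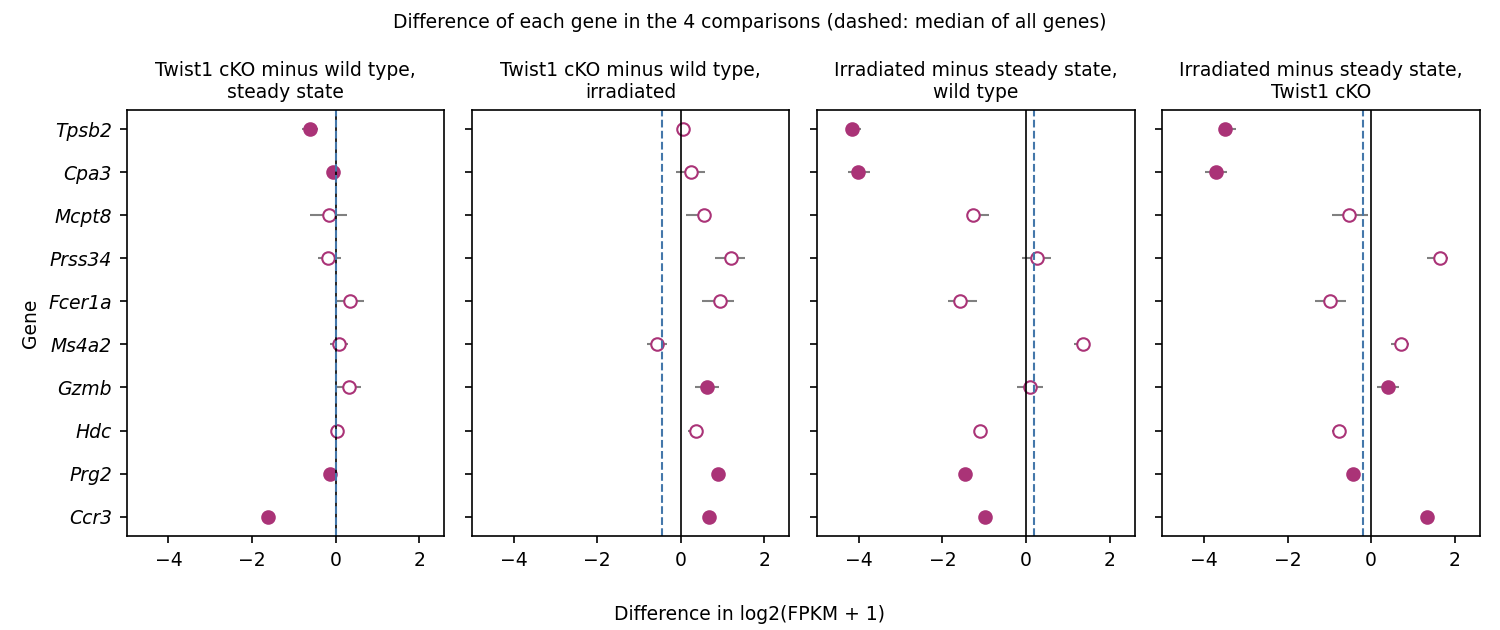
Difference in log2(FPKM + 1) of each gene (vertical axis) in the 4 comparisons, with 95% counting intervals as bars; filled points reach 5 FPKM in the higher library, open points do not, and the dashed line is the median of all genes. Tpsb2 and Cpa3 lie below -3 in both irradiation comparisons, Ms4a2 lies above 0 in both, and Ccr3 lies on opposite sides of 0 for wild type and cKO.

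The 4 comparisons share libraries, so the genotype dependence is given as 1 value per gene: the log2 difference with irradiation in the cKO minus that in wild type. Ccr3 had the largest value among the members, 2.30 (1.33 in the cKO and -0.97 in wild type), followed by Prss34 at 1.38 and Prg2 at 1.03. Ms4a2 had the only negative one, -0.66. Over the 7772 genes that reached 5 FPKM in a library the median was -0.40, and 97.9% of these genes had a smaller value than Ccr3. Cpa3 (0.29), Gzmb (0.31) and Hdc (0.33) had the values nearest to 0.

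Ccr3 was high and low in the same libraries as macrophage genes. The 10 macrophage and monocyte markers summed to 2542 FPKM in the steady-state wild-type library, 1342 in the steady-state cKO, 1354 in the irradiated wild-type and 2598.5 in the irradiated cKO library, and none was at 0 in any library. At steady state 8 of the 10 were lower in the cKO by 2-fold or more, beside 2.7% of all genes. Adgre1, which encodes the F4/80 antigen of macrophages and is also found on eosinophils, had 17.1, 6.07, 8.68 and 21.6 FPKM in the same order. Ear2, an eosinophil-associated ribonuclease also made by macrophages, had 56.3, 25.6, 53.1 and 85.6 FPKM. Other eosinophil markers did not have this order. Prg3, a homologue of Prg2, had 1.98, 3.59, 1.52 and 0.944 FPKM, and Ear1, a ribonuclease related to Ear2, had 2.74, 4.88, 1.86 and 0.935 FPKM, both highest in the steady-state cKO library and lowest in the irradiated cKO library. Siglecf stayed between 0.664 and 1.14 FPKM and Epx below 1 FPKM. The part of macrophage RNA in the Ccr3 values was not tested.

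**Figure D4:**
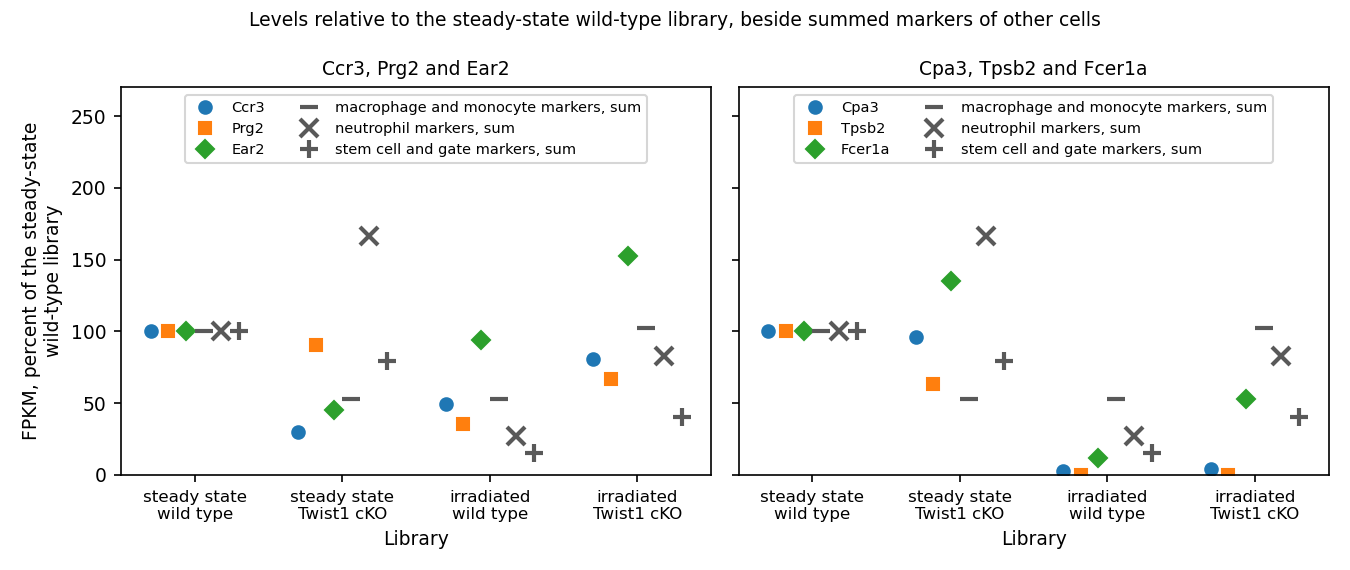
Level as a percentage of the steady-state wild-type library (vertical axis) in the 4 libraries (horizontal axis), for Ccr3, Prg2 and Ear2 on the left and Cpa3, Tpsb2 and Fcer1a on the right; grey symbols in both panels are the summed FPKM of marker lists, and there is 1 library per point. Ccr3 stands at 29.9%, 49.1% and 80.6% beside 52.8%, 53.3% and 102% for macrophage markers, and Cpa3 at 96.3%, 2.80% and 3.97% beside 79.5%, 15.6% and 40.5% for stem cell and gate markers, a sum carried mostly by Ly6a (steady-state cKO, irradiated wild type, irradiated cKO).

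Other genes of these cells were read from 10 lists of proteases, mediators, receptors, transcription factors and cytokines. Beside the members, 112 of their 123 distinct genes were matched by symbol. At steady state 54 of them reached 5 FPKM, and 1 was at least 2-fold higher and 3 lower in the cKO library (Ccl3 higher, Ear2, Pilra and Adgre1 lower). The shares of all genes were 0.643% higher and 2.7% lower. Between the irradiated libraries 6 of 41 were higher and 2 lower, beside 4.47% and 1.04% of all genes. With irradiation 27 of 52 were at least 2-fold lower and 2 higher in wild type, beside 18.9% of all genes each way. In the cKO 29 of 52 were lower and 5 higher, beside 22.6% and 10.3%. Their median log2 difference with irradiation was -1.12 in wild type and -1.18 in the cKO, beside 0.21 and -0.20 for all genes.

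Among further mast cell proteases, Cma1 and Mcpt4 were low after irradiation in both genotypes, as Tpsb2 and Cpa3 were. Tpsab1 had fewer reads after irradiation in wild type but more in the cKO, and Mcpt2 had at most 9 reads in any library. Cma1, mast cell chymase, had 11.8 and 7.12 FPKM in the steady-state pair, against 0.294 and 0.635 FPKM in the irradiated pair. Mcpt4, another chymase, had 99 and 74 reads in the steady-state pair and 0 reads in both irradiated libraries. Tpsab1 had 15, 17, 2 and 36 reads in the steady-state wild-type, steady-state cKO, irradiated wild-type and irradiated cKO libraries, most in the last, and Mcpt2 had 2, 2, 4 and 9 reads. The mast cell list of 8 markers, which includes both members, summed to 81.2 and 75.7 FPKM in the steady-state pair, against 9.77 and 7.69 FPKM in the irradiated pair, where most of what remained was Kit (8.52 and 4.98 FPKM) and 3 and 1 of the 8 were at 0. Kit itself, the sorted antigen, had 20.1 and 27.6 FPKM before irradiation. Ctsg, cathepsin G of the same chromosome 14 protease cluster as Mcpt8 and Gzmb but known from neutrophil precursors, had 205 and 138 FPKM and then 9.15 and 35.7 FPKM. In the chromosome 17 tryptase cluster no gene beside Tpsb2 reached 5 FPKM in any library.

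Some genes that make or store mediators were lower after irradiation along with Hdc, and others were higher or, in wild type, close to level. Slc18a2, the vesicular transporter that loads histamine and serotonin into granules, was 25.8-fold (20.4 to 32.9) lower in wild type (22.6 against 0.879 FPKM) and 56.3-fold (43.4 to 74.3) lower in the cKO (36.6 against 0.650 FPKM). Ptgs1, cyclooxygenase 1, was 10.6-fold (9.17 to 12.4) and 4.84-fold (4.37 to 5.38) lower, and Alox5ap, which presents arachidonic acid to 5-lipoxygenase, 7.40-fold (5.84 to 9.47) and 6.34-fold (5.11 to 7.94) lower. In this list 3 of the 6 genes that reached 5 FPKM were at least 2-fold lower in wild type, beside 18.9% of all genes. In the cKO 4 of 6 were, beside 22.6%. Lta4h, leukotriene A4 hydrolase, was close to level in wild type (118 against 108 FPKM) and lower in the cKO (122 against 77.3 FPKM). Below 5 FPKM, Alox5, which encodes 5-lipoxygenase, was higher after irradiation, at 1.53 and 1.55 FPKM before and 4.11 and 3.18 FPKM after it, and so was Tph1, a serotonin synthesis gene, at 0.136 and 0.0430 FPKM before and 1.41 and 0.417 FPKM after it. Of the signalling genes of the IgE receptor, 2 of 9 were lower in wild type (Plcg2 and Lcp2) and 7 of 11 in the cKO, beside 18.9% and 22.6% of all genes, so that the wild-type share was near that of all genes. In the cKO Fcer1g was higher (2.102-fold, 2.02 to 2.19). Slc18a2, Cma1, Plcg2 and Alox5ap were lower under every scaling tried.

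Gata1 and Gata2 differed with irradiation in opposite directions. Gata2, which acts in stem cells and in mast cells and basophils, had 44.9 and 54.1 FPKM in the steady-state pair, against 8.33 and 5.98 FPKM in the irradiated pair. Gata1, which acts in red cell, megakaryocyte, mast cell and eosinophil formation, had 42.2 and 38.9 FPKM and then 179 and 118 FPKM. Per length Gata1 stood at 0.939 times Gata2 (0.898 to 0.983) in the steady-state wild-type library and 21.5 times (20.1 to 22.9) in the irradiated wild-type library, with 0.718 and 19.7 times in the cKO libraries. Both directions with irradiation held under every scaling tried, and the erythroid genes listed above were higher in the same libraries. Mitf, a mast cell factor, stayed below 1 FPKM in all 4 libraries. Of 14 transcription factor genes that reached 5 FPKM in wild type, 6 were at least 2-fold lower and 1 higher, beside 18.9% of all genes each way. In the cKO the counts were 6 lower and 1 higher of 12, beside 22.6% and 10.3%. Of the 3 other receptor genes of these lineages that reached 5 FPKM, 3 were lower by 2-fold or more with irradiation in wild type (Crlf2, Csf2ra and Kit). In the cKO 2 were lower (Crlf2 and Kit), and the shares of all genes were those just given. Among those under 5 FPKM, Csf2rb, the common beta chain for interleukins 3 and 5, had 3.61 and 2.94 FPKM in the steady-state pair, against 0.445 and 0.985 FPKM in the irradiated pair. Il1rl1, the interleukin 33 receptor of mast cells and basophils, went the other way, with 1.29 and 1.16 FPKM, then 3.82 and 3.11 FPKM.

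Distances between profiles describe which genes resembled each other over the 4 libraries. By Euclidean distance of log2(FPKM + 1) centred per gene, the members nearest to each other were Mcpt8 and Hdc (0.20), Mcpt8 and Prg2 (0.24), Hdc and Prg2 (0.40), and Tpsb2 and Cpa3 (0.42). This scale brings genes of low level close together. For Prg2, the member with the highest mean, the 5 nearest of 6820 other genes were Igsf6 (0.10), Cd300a (0.13), BC035044 (0.14), Cd200r1 (0.14) and Ms4a6c (0.16). Igsf6 had 12.4, 11.9, 4.07 and 7.72 FPKM in the steady-state wild-type, steady-state cKO, irradiated wild-type and irradiated cKO libraries.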

How the data were processed

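RNA-seq of sorted mouse bone marrow cells was analysed from 4 libraries, 1 per group. The deposited values are FPKM per gene made by the authors, per the file headers. Tools named for the series, per the submitters' processing notes, are HOMER, MACS2 2.1.0, Bowtie and BWA 0.7.12-r1039, with the build mm10. Which of them made the FPKM was not given in the sources used here. Symbols were joined to 30231 of 30409 identifiers. For 6 symbols with several identifiers, that with the highest mean level was taken. Reads were recovered as the smallest whole numbers that give all 4 FPKM values and a whole gene length, with library sizes set from mitochondrial genes (12 of 13 in accord). This worked for all 30409 genes, 475 of which were at 0 in all libraries and need no reads. A gene's reads may thus be understated by a whole factor. Recovery was tested on simulated data.

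Differences were log2(FPKM + 1). Genes needed 5 FPKM in the higher library to be counted at 2-fold. Levels carry 95% Clopper-Pearson intervals and ratios the conditional exact binomial interval, with a floor of 3 reads. No test was run. Named genes were the members, up to 4 genes per list and comparison at least 2-fold apart, a fixed set of pathway genes, and the 5 genes nearest to Prg2 (5 FPKM in a library, no predicted, RIKEN, small RNA or receptor segment symbols). The members and lists were chosen with earlier results of these data known. Protein sequences were not used here, and 1 marker gene is not reported here and was left out of its list. Python 3.11.15, numpy 2.4.6, pandas 2.3.3 and scipy 1.17.1 were used.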

Additional observations from a re-analysis of the deposited data

Results flagged for a closer look

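Ccr3 had a genotype difference of opposite sign in the 2 conditions: the log2 difference of cKO minus wild type was -1.63 at steady state and 0.67 after irradiation, and both counting intervals excluded no difference. The sign of each held under every scaling tried and with a pseudocount of 0.1. Prg2 did the same at a smaller size, with -0.14 at steady state and 0.89 after irradiation, and its steady-state value turned to 0.06 with rescaling to all but the top 50 genes by level. With 1 library per group the difference between the conditions was not tested for either gene.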

How the results depend on the processing

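Counts of members at least 2-fold apart were recomputed under 6 settings in each direction of the 4 comparisons, and 38 of 48 values stayed within 1.5 times the count as reported. Lowering the minimum to 1 FPKM or dropping it gave 1 member higher between the irradiated libraries (Prss34, against 0), 1 higher (Ms4a2, against 0) and 6 lower (against 3) with irradiation in wild type, and 2 higher (against 1) in the cKO. The members added were those between 1 and 5 FPKM. Scaling to recovered read totals, or leaving out the 50 most abundant genes, gave 2 members higher between the irradiated libraries (Prg2 and Ccr3, against 0). No member counted at 2-fold changed sign, and 5 of 160 recomputed log2 differences of members did, all of them small: Cpa3 and Prg2 at steady state and Gzmb with irradiation in wild type. No paired analysis was possible because each group holds 1 library, and no replicate could be left out. Mcpt8, Prss34 and Ms4a2, Tpsb2 after irradiation, and Fcer1a in the irradiated wild-type library (8 reads) rest on few reads, and depth limits their ratios.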

Other observations

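Cytokine genes of these cells were read as well. Il4, a cytokine of basophils, mast cells and helper T cells, had 16.4 and 12.2 FPKM in the steady-state pair, against 4.16 and 2.19 FPKM in the irradiated pair (wild type first), higher than Mcpt8 in each library. Tslp, an epithelial cytokine that acts on basophils, had 6.51 and 7.06 FPKM and then 0.757 and 0.376 FPKM, while its receptor gene Crlf2 had 18.6 and 20.9 FPKM and then 2.57 and 2.99 FPKM. The eotaxin gene Ccl11, whose product binds Ccr3, had 0 reads in all 4 libraries, and Ccl24, the other eotaxin gene listed, had 0.208, 0.0918, 0.907 and 1.94 FPKM in the steady-state wild-type, steady-state cKO, irradiated wild-type and irradiated cKO libraries. Osm, which encodes oncostatin M, went against most of its list: it was 5.04-fold (4.50 to 5.66) higher after irradiation in wild type, and 2.34-fold (2.14 to 2.56) lower in the irradiated cKO than in the irradiated wild-type library.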
